A study of Mus musculus with 2 samples.

Results

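The cells described here are mononuclear phagocytes with little or no C1q, selected as monocytes and infiltrating macrophages and drawn from single cell RNA sequencing (scRNAseq) of an uninjured and an ischemic mouse kidney. They were selected on their own counts of unique molecular identifiers (UMIs, each marking 1 captured RNA molecule). A cell had to carry at least 3 UMIs of Csf1r, Ccr2, Ly6c2, Ms4a6c and Mpeg1 together, making up at least 0.05% of its UMIs, and at least 3 UMIs of Lyz2. C1qa, C1qb and C1qc together had to stay below 0.5% of its UMIs, S100a8 and S100a9 below 2%, and Flt3, Cd209a, Xcr1 and Clec9a at 1 UMI or fewer, with 0 UMIs of Cd3e and Cd79a. This chose 265 of the 25702 kept cells of both libraries, of which 23 came from the control and 242 from the ischemia library. Cells that passed the same gate with C1q at or above 0.5%, called C1q-high here, numbered 84 and 140.

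Both libraries came from C57BL/6J wildtype male mice of 19 weeks. The left renal pedicle was clamped for 27 min, and after 24 h of reperfusion the ischemic kidney and the contralateral, uninjured kidney were taken. The contralateral kidney is the control, so it comes from a mouse with an injured kidney and not from an unoperated one. The control library held 15110 cell barcodes with 142686238 UMIs and the ischemia library 15257 with 142959737 UMIs, of which 12586 and 13116 were kept, namely those with 200 or more genes, between 500 and 150000 UMIs and no more than 55% of UMIs from mitochondrial genes. Each condition is 1 library, so cells are not replicates, no test between conditions was possible, and all 95% intervals given in parentheses cover counting error only.

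Monocytes leave the bone marrow and reach an injured organ through the blood. Classical (Ly6c-high) monocytes depend on CCR2 to enter inflamed tissue, where they can turn into macrophages, while non-classical (Ly6c-low) monocytes patrol the vessel wall and depend on NR4A1. Resident kidney macrophages instead make large amounts of C1q, the recognition molecule of the classical complement pathway, and present antigen on MHC class II molecules.

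C1q-low cells made up 0.183% of the 12586 kept control cells (0.116–0.274) and 1.85% of the 13116 kept ischemia cells (1.62–2.09), a share 10.1 times as large. With a C1q limit of 1% instead, the shares were 0.334% and 2.16%, and the ischemia share was 6.47 times as large. The share of C1q-high cells was 0.667% (0.533–0.826) in control and 1.07% (0.899–1.26) in ischemia, 1.60 times as large. Among gated cells of both kinds, C1q-low cells were 21.5% of 107 in control (14.1–30.5) and 63.4% of 382 in ischemia (58.3–68.2). Shares of kept cells also move with the number of other cells captured, and the median depth of all kept cells was 3839 UMIs in control against 2138.5 in ischemia. The C1q-low cells themselves were deeper, with medians of 6125 UMIs and 2286 genes in control and 9113 UMIs and 2816.5 genes in ischemia. Their summed UMIs were 177689 and 2346741, so a gene without a UMI in the control cells could still have reached 16.9 CPM, the limit set by 3 counts, where CPM are a gene's UMIs scaled to a total of 1000000 UMIs in the group.

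**Figure D1:**
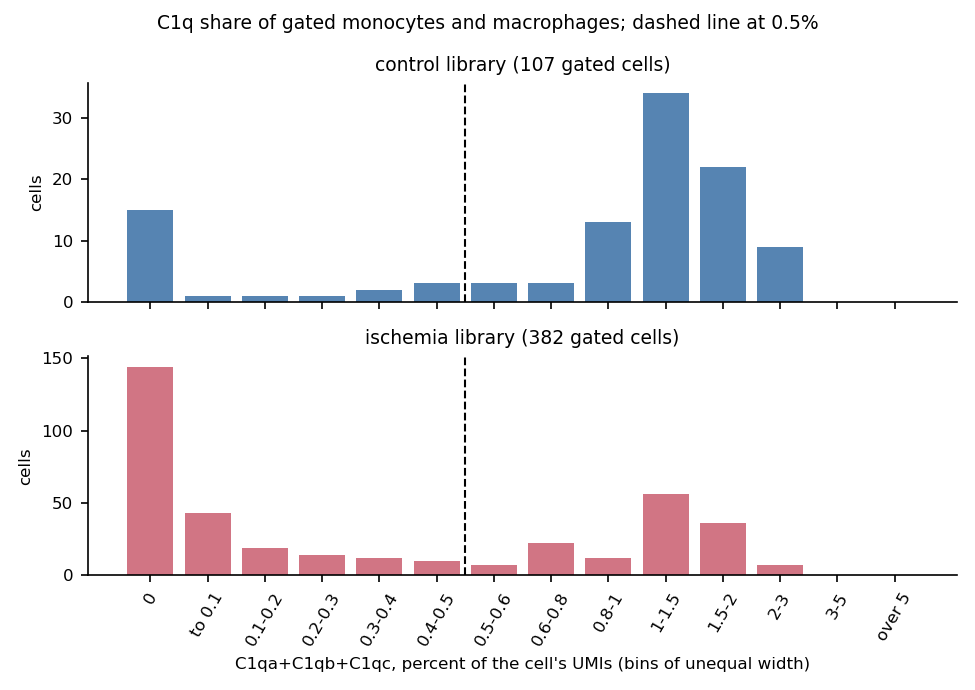
Number of gated cells (vertical axis) by the share of C1qa, C1qb and C1qc in each cell's UMIs (horizontal axis, percent, bins of unequal width), for the control library above and the ischemia library below. The dashed line marks the 0.5% criterion, and the bin at 0 holds 15 control and 144 ischemia cells.

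Low C1q was fixed by the selection. Of the C1q-low cells, 15 of 23 control and 144 of 242 ischemia cells had 0 C1q UMIs. Just inside the limit, 3 control and 10 ischemia cells had 0.4% or more, with the highest at 0.458% and 0.484%. Just outside it, 3 control and 7 ischemia C1q-high cells were below 0.6%, with the lowest at 0.503% and 0.502%. The barcodes of 58 kept cells occurred in both libraries, and 1 of them was that of a C1q-low cell, in 1 library only.

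Markers of the named cell types were then examined. Ccr2, the chemokine receptor of classical monocytes, stood at 428 CPM (337–535, 14 of 23 cells) in control and 739 CPM (705–775, 218 of 242 cells) in ischemia. For Ms4a6c, a membrane protein gene of monocytes and macrophages, the values were 585 CPM (478–709, 21 of 23 cells) and 742 CPM (707–778, 230 of 242 cells). Itgam, which encodes CD11b and was not part of the gate, measured 180.1 CPM (123–254, 14 of 23 cells) and 386 CPM (361–412, 209 of 242 cells). These 3 were found in most cells of both libraries. Ly6c2, the Ly6C antigen gene that defines classical monocytes, was found in 1 of 23 control cells, with 1 UMI, and in 67 of 242 ischemia cells, at 84.4 CPM. With 1 UMI in 23 cells, the data go against the name of Ly6c2-expressing monocytes for the control cells, and the cells are called C1q-low cells below. At least 2 of the 4 markers had a UMI in 18 of 23 control and 229 of 242 ischemia C1q-low cells. Among C1q-high cells this held for 43 of 84 and 118 of 140, and Itgam had a UMI in 119 of the 140 ischemia cells, so Itgam does not part the groups in that library. Ly6c2 and its close relative Ly6c1 lie near each other on chromosome 15 and have near-identical transcripts, so their counts may be split between them. Ly6c1 had a UMI in 1 of 23 control and 16 of 242 ischemia C1q-low cells, and the effect of such a split on Ly6c2 was not tested. Ly6c2, Ccr2 and Ms4a6c also chose the cells, so their values are a description.

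The next question was how C1q-low cells of the ischemic kidney differed from those of the uninjured kidney. The ratio is the ischemia CPM over the control CPM. Of 3662 genes with at least 100 UMIs over both groups, 394 (10.8%) were at least 2-fold higher in ischemia and 159 (4.34%) at least 2-fold lower, and the median ratio was 1.09. Since the ischemia cells held most of the UMIs, genes high in ischemia passed the minimum more easily than genes high in control, which weighs on these counts. Genes used by the gate are left out of them and of the counts by list below, which cover only the genes that passed this minimum, called measured genes. The shares of 10.8% and 4.34% are the background beside which each list's count is to be read. In ischemia, 10 of 11 measured wound genes, 9 of 13 S100, annexin and galectin genes and 5 of 7 CC chemokines were at least 2-fold higher, while 5 of 7 MHC class II genes and 4 of 11 non-classical monocyte genes were at least 2-fold lower.

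Chemokines are described first. Of 7 measured CC chemokines, 5 were at least 2-fold higher and 2 at least 2-fold lower, with a median ratio of 5.98. Ccl2, the main CCR2 ligand (chr11:82035571-82037453, GRCm38), measured 28.1 CPM (9.14–65.7, 2 of 23 cells) in control and 1083 CPM (1042–1126, 111 of 242 cells) in ischemia, a ratio of 38.5 (16.5–119). Its neighbour Ccl7 (chr11:82045712-82047525), another CCR2 ligand, had 0 UMIs in 23 cells in control and 281 CPM (260.2–304, 39 of 242 cells) in ischemia, at least 16.7-fold higher. Thick ascending limb cells of the ischemia library, taken as a background of free RNA, had a UMI of Ccl2 in 2.38% and of Ccl7 in 0.595%, at a median of 19632 UMIs against 9113 in C1q-low cells. Ccl6 went from 343 CPM (263–441, 17 of 23 cells) to 2052 CPM (1995–2111, 227 of 242 cells), 5.98-fold (4.65–7.83), and was found in nearly every ischemia cell. For Ccl2 and Ccl6 the intervals of both libraries lay apart. For Ccl9, the ratio was 3.28 (2.398–4.61), and for Ccl12 it was 8.897 (2.44–73.9) with UMIs in 1 control cell. The inflammatory chemokine genes Ccl3 and Ccl4 went the other way. Ccl3 was at 552 CPM (448–672, 6 of 23 cells) in control and 142 CPM (127–158, 54 of 242 cells) in ischemia, although 1 cell held 51.02% of the control UMIs. Pf4, a CXC chemokine of platelets that macrophages also express, was at 11.3 CPM (1.36–40.7, 2 of 23 cells) and 714 CPM (680.0–749, 49 of 242 cells). The platelet genes Itga2b and Gp1bb had few UMIs, with Gp1bb at 0 UMIs in the C1q-low cells of both libraries and Itga2b at 0.426 CPM (0.0108–2.37, 1 of 242 cells) in ischemia, while the platelet chemokine gene Ppbp was at 27.3 CPM (21–34.8, 12 of 242 cells) there. In the C1q-high cells, Pf4 measured 474 CPM for control against 1679 CPM for ischemia. Over all 5 CXC chemokines measured, 3 were at least 2-fold higher and 1 lower. Cxcl2, a neutrophil attractant, measured 518 CPM (417–635, 3 of 23 cells) and 1214 CPM (1169.9–1259, 115 of 242 cells). Cxcl10, an interferon-induced T cell attractant, came out lower in ischemia, but 1 control cell held 99.1% of its control UMIs.

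**Figure D2:**
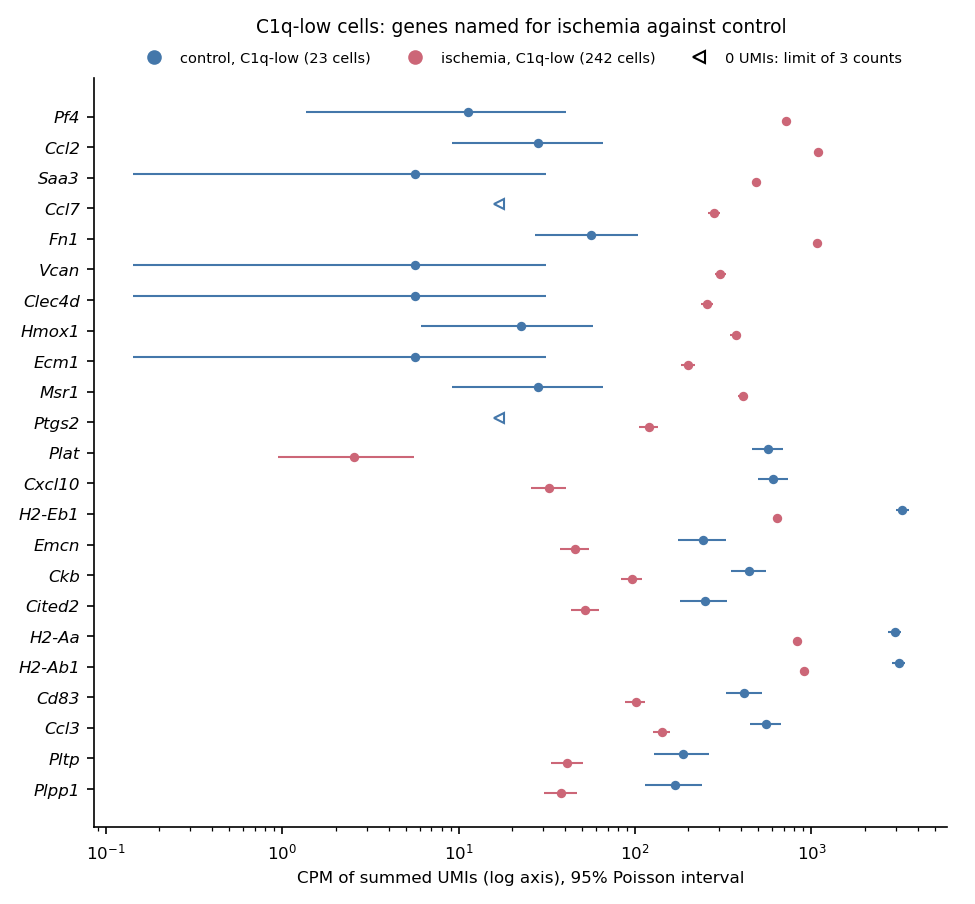
Level in CPM of summed UMIs (horizontal log axis) of genes named as highest (upper rows) and the 12 named as lowest (lower rows) in ischemia against control C1q-low cells, with 95% Poisson intervals. Control values of the upper rows lie at 56.3 CPM or below, and open triangles mark 0 UMIs at the limit of 3 counts.

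Among chemoattractant receptors, 4 of 8 measured were at least 2-fold higher and 1 was lower. Ccr1, a receptor of inflammatory CC chemokines, stood at 28.1 CPM (9.14–65.7, 3 of 23 cells) in control and 234 CPM (215–254, 155 of 242 cells) in ischemia, a ratio of 8.31 (3.54–25.7). C3ar1, the receptor of the complement fragment C3a, had a ratio of 5.96 (2.01–29.1), with UMIs in 1 control cell. The fractalkine receptor gene Cx3cr1, typical of non-classical monocytes and resident macrophages, was lower in ischemia, at 148 CPM (133–164, 113 of 242 cells) against 298 CPM (223–390.1, 19 of 23 cells). Among 12 adhesion and migration genes, 1 was at least 2-fold higher, Itgam, and 1 lower, the tetraspanin gene Cd9 at a ratio of 0.5 (0.379–0.671).

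Il1b was found in most cells of both groups, and other IL-1 genes in fewer. Il1b, which encodes IL-1β, measured 2065 CPM (1859.5–2288, 20 of 23 cells) in control and 3132 CPM (3060.4–3204, 215 of 242 cells) in ischemia, a ratio of 1.52 (1.37–1.69). After each cell was thinned to 1000 UMIs, a UMI of Il1b remained in 56.5% (34.5–76.8) of control and 73.1% (67.1–78.6) of ischemia cells, against 1.79% (0.3698–5.13) of ischemia cells with the thick ascending limb gene Slc12a1, which served as a background of free RNA. Without thinning the shares were 86.96%, 88.8% and 5.36%, at median depths of 6125, 9113 and 19632 UMIs. Il1rn, the gene of the IL-1 receptor antagonist, stood at 28.1 CPM (9.14–65.7, 2 of 23 cells) and 59.2 CPM (49.8–69.9, 56 of 242 cells), with an interval of the ratio from 0.881 to 6.58. Of the receptors, the decoy gene Il1r2 had 60.5 CPM (50.97–71.3, 44 of 242 cells) in ischemia. The signaling receptor gene Il1r1 had 1 UMI in the control cells and 8 in the ischemia cells, which came from 1 of 23 and 7 of 242 cells. Unthinned, 2.89% of ischemia C1q-low cells and 1.19% of the deeper thick ascending limb cells had a UMI of it. Their intervals of 1.17–5.87 and 0.144–4.23 overlapped. All 9 Il1r1 UMIs of C1q-low cells lay in cluster 1 of the clusters described further on, in 1 of 5 control and 7 of 93 ischemia cells, which is also the cluster with the most endothelial marker UMIs. Nlrp3, the inflammasome sensor, was at 61.9 CPM (30.9–111, 7 of 23 cells) in control and 130.0 CPM (116–145, 116 of 242 cells) in ischemia. In all, 3 of 10 measured genes of the IL-1 family and inflammasome were at least 2-fold higher and 0 lower, and these were Il1rn, Il1r2 and Nlrp3, for each of which the interval of the ratio began at 1.16 or below. Among other cytokines and growth factors, 2 of 5 measured were higher and 1 lower. Osm, the gene of the IL-6 family cytokine oncostatin M, had a ratio of 3.65 (1.75–9.14). Tnf, below the minimum of 100 UMIs, was at 61.9 CPM (30.9–111, 4 of 23 cells) and 14.9 CPM (10.4–20.7, 24 of 242 cells), and its ratio turned to 1.01 with a C1q limit of 0.2%. Cytokine receptor and feedback genes gave 2 of 10 higher and 0 lower, with the feedback inhibitor Socs3 at 2.04 (1.36–3.21). NF-kB and immediate early genes gave 1 of 14 higher, the stress gene Ier3 at 3.15 (2.15–4.796), and 0 lower, near the background share.

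Wound and matrix genes had the highest share of higher genes among the 22 lists, with 10 of 11 measured at least 2-fold higher, 0 lower and a median ratio of 3.505 against 1.09 over all genes. Fn1, which encodes fibronectin, went from 56.3 CPM (26.99–104, 2 of 23 cells) to 1074 CPM (1033–1117, 171 of 242 cells). Thbs1, the gene of the matrix protein thrombospondin 1, stood at 197 CPM (137–274, 6 of 23 cells) and 1006 CPM (965–1047, 165 of 242 cells), a ratio of 5.11 (3.66–7.35). Chil3, which encodes the chitinase-like protein Ym1, measured 552 CPM (448–672, 6 of 23 cells) and 1807 CPM (1753–1862, 169 of 242 cells), and 1 cell held 45.9% of the control UMIs. Thinned shares of cells with Chil3 were 13.04% (2.78–33.6) and 50% (43.5–56.5), against 0.595% (0.0151–3.27) in thick ascending limb cells. Spp1, which encodes osteopontin and is also made by kidney tubules, had UMIs in all C1q-low cells of both libraries and a ratio of 4.53 (3.86–5.34). As thinned thick ascending limb cells had a UMI of Spp1 in 99.4% (96.7–99.98), the part of free RNA in its level was not tested. Matrix protease and coagulation genes gave 4 of 8 higher and 0 lower, among them Adam8, a leukocyte metalloprotease, at 14.1 (3.88–117) and Timp1, a metalloprotease inhibitor, at least 3.26-fold higher. The classical monocyte genes gave 4 of 8 measured higher and 0 lower. Vcan, the proteoglycan versican of classical monocytes, had 5.63 CPM (0.142–31.4, 1 of 23 cells) and 304 CPM (282–327, 108 of 242 cells), and F13a1, the coagulation factor XIII A chain, had a ratio of 7.45 (4.03–15.6).

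S100, annexin and galectin genes, many of which encode calcium-binding proteins of migrating cells, gave 9 of 13 higher and 1 lower, with a median ratio of 2.31. S100a6 was at 1013 CPM (870.4–1172, 14 of 23 cells) in control and 2996 CPM (2926–3066, 233 of 242 cells) in ischemia, a ratio of 2.96 (2.55–3.45). Lgals1, which encodes galectin-1, had 225 CPM (161–307, 11 of 23 cells) and 1159 CPM (1116–1203, 207 of 242 cells). The member lower in ischemia was S100a1, with a ratio of 0.419 (0.2996–0.5999).

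Of 13 pattern recognition and 17 Fc receptor and phagocytosis genes measured, 6 and 6 were at least 2-fold higher and 0 lower, and 7 and 11 lay between the limits, with median ratios of 1.502 and 1.78. Clec4d, a C-type lectin receptor for mycobacterial glycolipid, went from 5.63 CPM (0.142–31.4, 1 of 23 cells) to 257 CPM (237–278, 149 of 242 cells). Clec4e, which encodes the related receptor Mincle, had a ratio of 4.35 (2.53–8.21). Msr1, the class A scavenger receptor, measured 28.1 CPM (9.14–65.7, 5 of 23 cells) and 409.9 CPM (384–437, 194 of 242 cells). Ctsl, the lysosomal protease cathepsin L, was at 101 CPM (60.04–160.1, 11 of 23 cells) and 691 CPM (658–726, 223 of 242 cells). The acute phase gene Saa3 was seen in 1 control cell and in 97 of 242 ischemia cells, at 487 CPM (459–516, 97 of 242 cells). Of the resident macrophage genes, 3 of 10 were higher and 2 lower, with Mrc1, the mannose receptor, at a ratio of 3.35 (1.61–8.41) and the tetraspanin gene Cd81 at 0.475 (0.333–0.696), which with a C1q limit of 0.2% instead was 1.27.

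Iron and oxidative stress genes gave 6 of 14 higher and 0 lower. Hmox1, the heme oxygenase, was at 22.5 CPM (6.13–57.6, 3 of 23 cells) and 372 CPM (347–397, 111 of 242 cells). Ptgs2, the inducible cyclooxygenase, had 0 UMIs in 23 cells in control and 119 CPM (106–134, 84 of 242 cells) in ischemia, and Ecm1, the matrix protein gene, 5.63 CPM (0.142–31.4, 1 of 23 cells) and 199.8 CPM (182–219, 123 of 242 cells). Slc7a11, the cystine transporter, stood at 11.3 CPM (1.36–40.7, 2 of 23 cells) and 115 CPM (101–129, 84 of 242 cells). Ferritin genes were found in every cell, with ratios of 2.02 (1.88–2.17) for Fth1 and 2.12 (1.95–2.3) for Ftl1. Glycolysis and hypoxia genes gave 6 of 15 higher and 0 lower. The glycolytic enzyme gene Pgk1 had a ratio of 3.05 (1.87–5.37) and Ldha, lactate dehydrogenase A, one of 2.24 (1.56–3.33). Myeloid transcription factor genes gave 1 of 12 higher and 1 lower. The higher one was Hif1a, the oxygen-regulated factor, at 124 CPM (77.6–187, 12 of 23 cells) in control and 363 CPM (339–388, 192 of 242 cells) in ischemia. Hif1a was also found in thinned thick ascending limb cells of the ischemia library, in 15.5% (10.4–21.8), against 24.4% (19.1–30.3) of C1q-low cells.

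MHC class II presentation genes were lower in the ischemia cells, with 0 of 7 measured higher and 5 at least 2-fold lower, at a median ratio of 0.386. H2-Aa, which encodes an alpha chain, stood at 2972 CPM (2723–3236, 11 of 23 cells) in control and 826 CPM (789–863, 100 of 242 cells) in ischemia, a ratio of 0.278 (0.252–0.307). For the beta chain genes, the ratio was 0.288 (0.262–0.317) for H2-Ab1 and 0.196 (0.178–0.216) for H2-Eb1. Cd74, the invariant chain, had a ratio of 0.386 (0.362–0.411), whereas the costimulatory gene Cd86 was near even at 1.07 (0.847–1.38). The 8 control cells of 1 cluster, cluster 3, held 470 of the 528 control UMIs of H2-Aa and 549 of the 582 of H2-Eb1. Of the 4 clusters described further on, cluster 3 had the highest sum of resident macrophage markers, at 2144.5 CPM. H2-Aa UMIs came from fewer than 50% of the C1q-low cells in either library. Markers of other antigen-presenting cells had few UMIs in C1q-low cells, and the gate limited Flt3, Cd209a, Xcr1, Clec9a and Cd79a among them. Dendritic cell markers summed to 78.8 CPM in control (14 UMIs) and 16.2 CPM in ischemia (38 UMIs). B cell markers summed to 67.5 CPM (12 UMIs) and 28.1 CPM (66 UMIs). The part of these markers' cells in the class II values was not tested. In the C1q-high cells, H2-Aa was at 5558 CPM (5364–5758, 83 of 84 cells) in control and 1966 CPM (1898–2036, 131 of 140 cells) in ischemia and H2-Eb1 at 7061 and 2264 CPM.

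Class II genes are known to share a Y box in their promoters. Its letters CTGATTGG, chosen after the values were seen, were searched on both strands of the 250 bases before each start in the promoter windows of RefSeq (GRCm38.p6). Of the 10 genes of the list, 5 had a window and 2 held these letters, H2-Aa and H2-Eb1. Of all 32851 windows, which belong to 27025 genes, 3.83% held them. A gene counted once if any of its windows held the letters, so shares of genes and of windows are counted unlike. A stretch of 60 bases from each is shown, 5′ to 3′ on the gene's strand, with the Y box in capitals. The H2-Aa stretch is chr17:34287841-34287900 on the minus strand and begins its Y box 51 bases before the start, and the H2-Eb1 stretch is chr17:34305779-34305838 on the plus strand, 62 bases before.
H2-Aa: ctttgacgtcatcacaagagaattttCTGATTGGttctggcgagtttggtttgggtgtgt
H2-Eb1: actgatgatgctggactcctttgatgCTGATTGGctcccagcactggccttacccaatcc
The Y box letters were not limited to class II genes. Of the genes named as lower in ischemia, 3 of 8 with a window held them, Cxcl10, H2-Aa and H2-Eb1, against 0 of 6 for those named as higher. Of the genes with a window named in C1q-low against C1q-high cells, 1 of 9 held them on the higher side (Plac8) and 1 of 9 on the lower side (Cxcl9). The match is a description of the sequence. Factor binding was not measured.

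Non-classical monocyte genes gave 0 of 11 higher and 4 at least 2-fold lower in ischemia, with a median ratio of 0.521. Ace, the angiotensin-converting enzyme gene that these monocytes express, was at 203 CPM (142–280.5, 11 of 23 cells) in control and 82.7 CPM (71.4–95.2, 62 of 242 cells) in ischemia. Adgre4, an adhesion receptor gene of non-classical monocytes, had 281 CPM (209–371, 14 of 23 cells) and 147 CPM (132–163, 103 of 242 cells). Klf2, a transcription factor of quiescent leukocytes and endothelium, had a ratio of 0.366 (0.311–0.432), and Nr4a1, the factor that non-classical monocytes need, had 0.811 (0.643–1.03). Other genes named as lower were Ckb, Cited2, Cd83, Pltp, Plat, Emcn and Plpp1. Cd83, a maturation marker of antigen-presenting cells, was at 416 CPM (327–523, 12 of 23 cells) and 101 CPM (88.1–114, 91 of 242 cells). Plat, Emcn and Plpp1, which endothelium expresses, had 98.02%, 100.0% and 96.7% of their control UMIs in 1 cell. Once the 10% of cells scored most like doublets were left out, the ratios of Emcn and Plpp1 were 1.21 and 3.39. Interferon response genes gave 0 of 9 higher and 2 lower, Cxcl10 and Isg15, the latter at 0.391 (0.251–0.634). Cell cycle genes gave 0 of 3 higher and 0 lower.

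The C1q-high macrophages of both libraries were set beside the C1q-low cells for some of the genes above. Ccl2 was at 278 CPM (236–325, 16 of 84 cells) in control and 902 CPM (856–949.8, 100 of 140 cells) in ischemia among C1q-high cells. Fn1 had a ratio of 9.34 (5.77–16.2) there, Hmox1 2.77 (2.29–3.38), Spp1 4.27 (3.82–4.79) and Thbs1 13.6 (5.22–50.7). These 5 genes were higher in ischemia in C1q-high cells as well, and Il1b was not. It was at 1623 CPM (1519–1733, 69 of 84 cells) in control and 1094 CPM (1043–1146, 84 of 140 cells) in ischemia, with thinned shares of cells of 52.4% (41.2–63.4) and 34.3% (26.5–42.8). Saa3 was at 3.61 CPM (0.437–13.03, 1 of 84 cells) and 23.8 CPM (16.8–32.7, 4 of 140 cells), below its ischemia level in C1q-low cells of 487 CPM. Clec4d was at 27.1 CPM (15.1–44.6, 3 of 84 cells) and 111 CPM (95.7–129, 62 of 140 cells) in C1q-high cells.

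C1q-low cells were then compared with the C1q-high macrophages of the same ischemic kidney, so that both groups came from 1 library. C1q chose both groups, so the values describe them and no difference between them counts as a test. Of 5011 genes with at least 100 UMIs over both groups, 440 (8.78%) were at least 2-fold higher in C1q-low cells and 242 (4.83%) at least 2-fold lower, with a median ratio of 1.04. The C1q-low cells carried more of the monocyte genes of both kinds and the C1q-high cells more of the resident macrophage genes. Markers of other cell types moved with this comparison too. The 7 neutrophil markers summed to 520 CPM in C1q-low and 26.9 CPM in C1q-high cells, led by S100a8 at 392 CPM and by Csf3r at 12.5 CPM, with Ly6g and Retnlg at 0 UMIs in both. The 7 endothelial markers summed to 227 and 89.6 CPM. Their part in the differences below was not tested.

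All 8 measured classical monocyte genes outside the gate were at least 2-fold higher in C1q-low cells, against 8.78% of all genes, with a median ratio of 16.1. Hp, which encodes the hemoglobin scavenger haptoglobin, was at 313 CPM (291–337, 142 of 242 cells) in C1q-low and 2.51 CPM (0.683–6.42, 3 of 140 cells) in C1q-high cells, a ratio of 125 (48.6–460.0). Plac8, a small cysteine-rich protein gene of monocytes, had 1338 CPM (1292–1386, 186 of 242 cells) and 59.5 CPM (48.1–72.7, 20 of 140 cells), a ratio of 22.5 (18.3–27.9). Chil3 had 105 CPM (89.3–122, 18 of 140 cells) in C1q-high cells, a ratio of 17.3 (14.8–20.3). Vcan followed with a ratio of 21.1 (13.96–33.5). Non-classical genes were higher in 7 of 10 and lower in 1, Cx3cr1, at 0.312 (0.274–0.355). The higher ones included Adgre4 at 33.4 (16.1–83.8) and Ace at 32.99 (12.7–122). The transcription factor genes of this lineage, Nr4a1 and Klf2, had ratios of 4.33 (3.6–5.24) and 4.61 (3.82–5.59). Cebpb, a factor of myeloid differentiation and inflammation, stood at 1799.5 CPM (1746–1855, 236 of 242 cells) against 582 CPM (545–621, 125 of 140 cells). Wfdc21 and Slpi, both of the secreted protease inhibitor family of WAP proteins, were near absent from C1q-high cells, with 0 UMIs in 140 cells and 3.13 CPM (1.02–7.31, 2 of 140 cells). The interferon-inducible membrane gene Ifitm6 had a ratio of 48.5 (25.4–106) and F10, coagulation factor X, one of 35.9 (15.2–112).

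**Figure D3:**
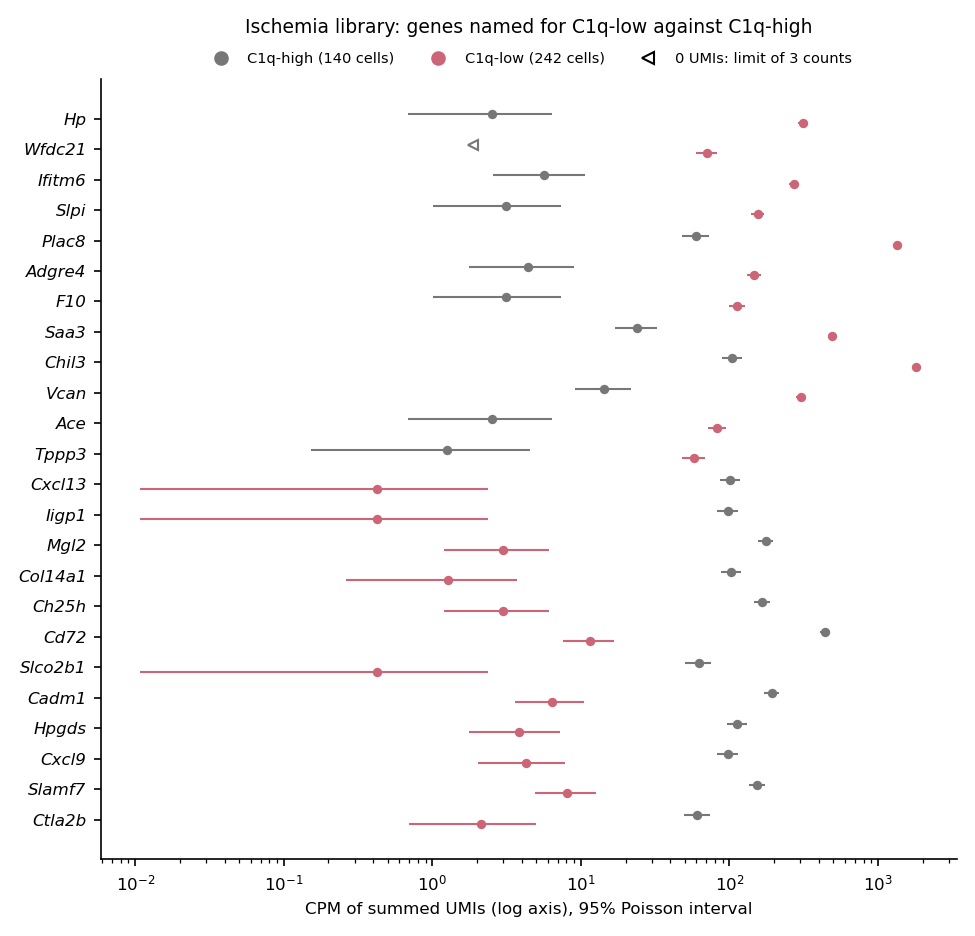
Level in CPM of summed UMIs (horizontal log axis) of the 12 genes named as highest and the 12 named as lowest in C1q-low against C1q-high cells of the ischemia library, with 95% Poisson intervals. Hp stands at 313 CPM in C1q-low and 2.51 CPM in C1q-high cells, and Cd72 at 11.5 and 438 CPM.

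Inflammatory and wound genes divided between the groups. IL-1 family and inflammasome genes were at least 2-fold higher in C1q-low cells for 3 of 11 and lower for 0, wound genes higher for 8 of 12 and lower for 2, and CXC chemokines higher for 1 of 8 and lower for 5. Il1b was 2.86-fold (2.72–3.02) higher in C1q-low cells, and its thinned share of cells was 73.1% (67.1–78.6) against 34.3% (26.5–42.8). Thbs1 was 10.2-fold (8.698–12.1) higher and Fn1 3.75-fold (3.396–4.16). Ccl6 and Ccl9 were higher in C1q-low cells, at ratios of 2.34 (2.205–2.49) and 1.96 (1.78–2.15), the latter just under the 2-fold limit. Of 9 CC chemokines, 5 were at least 2-fold lower and 2 at least 2-fold higher, with Ccl6 but not Ccl9 among the higher ones. Ccl3 had a ratio of 0.152 (0.134–0.171), Ccl4 0.179 (0.167–0.192), Ccl12 0.0943 (0.0819–0.108) and Ccl7 0.353 (0.321–0.388), so C1q-high cells carried more of these. Ccl2 was close in both, at 1083 CPM (1042–1126, 111 of 242 cells) and 902 CPM (856–949.8, 100 of 140 cells). Tnf stood at 14.9 CPM in C1q-low and 115 CPM in C1q-high cells, lower in C1q-low cells, where Il1b was higher. Other cytokines and growth factors were higher for 2 of 8 and lower for 3, with Vegfa, the endothelial growth factor, at 5.34 (2.99–10.4). S100, annexin and galectin genes were higher in 8 of 14 and lower in 0, with S100a4 at a ratio of 3.64 (3.4–3.91). Pattern recognition genes were higher for 6 of 14 and lower for 0, with Clec4e at 7.16 (5.61–9.26) and Trem1, an amplifier of myeloid inflammation, at 7.77 (4.86–13.2). Adhesion genes of circulating leukocytes were higher in 5 of 12, among them Itgal, the LFA-1 alpha chain, at 5.71 (4.19–7.97) and Itga4, the VLA-4 alpha chain, at 4.72 (3.68–6.15). Cytokine receptor genes were higher in 5 of 11, with Il17ra, the IL-17 receptor chain, at 5.32 (3.78–7.66). Chemoattractant receptor genes were higher for 3 of 8 and lower for 2, with Cxcr4, the marrow retention receptor, at 4.23 (2.83–6.55) and C3ar1 at 0.4004 (0.339–0.471). Iron and oxidative stress genes were higher for 2 of 16 and lower for 3, with Slc7a11 at 9.63 (6.05–16.2) and Fth1 at 0.498 (0.489–0.507). Glycolysis and hypoxia genes were higher for 5 of 17, with Slc16a3, a lactate exporter, at 3.85 (2.77–5.49). Myeloid transcription factor genes were higher for 5 of 12, with Hif1a at 3.64 (3.07–4.34), and NF-kB and immediate early genes for 4 of 15, with 1 lower. Interferon response genes gave 3 of 11 higher and 2 lower, and matrix protease and coagulation genes 4 of 11 higher and 4 lower. Phagocytosis genes gave 0 of 17 higher and 1 lower, the scavenger receptor Cd36 at 0.313 (0.272–0.3605).

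Resident macrophage genes were at least 2-fold lower in C1q-low cells for 11 of 16 measured and higher for 0, with a median ratio of 0.408 against 1.04 over all genes. Cd72, a lectin-type receptor found on B cells and macrophages, was at 11.5 CPM (7.58–16.7, 11 of 242 cells) against 438 CPM (406–472, 93 of 140 cells). Cd81, a tetraspanin, had a ratio of 0.155 (0.134–0.179), and Mrc1, the mannose receptor, 0.288 (0.251–0.329). Adgre1, which encodes F4/80, was found in both groups, at 119 CPM (105–134, 128 of 242 cells) and 303 CPM (276–331, 119 of 140 cells). Class II genes were lower in 4 of 7, with H2-Eb1 at 0.283 (0.267–0.301). Mgl2, a galactose-type lectin, Ch25h, the cholesterol 25-hydroxylase, and Hpgds, a prostaglandin D2 synthase, had ratios of 0.0169 (0.00675–0.0354), 0.0179 (0.00713–0.0374) and 0.03401 (0.0153–0.06603). Cxcl13 and Cxcl9 were also named as lower, but 1 C1q-high cell held 93.2% and 82.1% of their UMIs. Cell cycle genes were lower in 3 of 4 measured, and Birc5 had 0 UMIs in 242 cells among C1q-low cells.

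A promoter stretch of Saa3, named in both comparisons, is shown with letters of a C/EBP site. Cebpb was higher in C1q-low than in C1q-high cells, and a link of Cebpb to Saa3 was not tested. The letters TTGCNNAA, a core of the C/EBP site searched on both strands of the same windows, were chosen after the values were seen. Of the 12 genes named as higher in C1q-low cells, 9 had a window and 4 held the letters (Adgre4, Plac8, Saa3 and Slpi). Of those named as lower, 3 of the 9 with a window held them. The share of all windows was 9.56%, counted by window and not by gene. The Saa3 stretch, chr7:46715742-46715801 on the minus strand, begins its match 99 bases before the start, with the match in capitals as it reads on this strand.
Saa3: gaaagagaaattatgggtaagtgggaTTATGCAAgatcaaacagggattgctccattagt
In the ischemia against control comparison the letters were held by 3 of 6 genes with a window named as higher and 1 of 8 named as lower. The letters thus occurred among genes on both sides of both comparisons, and binding of C/EBP factors was not measured.

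C1q-low cells were not uniform. Clustering of the 265 cells gave 4 clusters, and the genes that define them are given as a description only. Cluster 1 held 98 cells (5 control, 93 ischemia) and cluster 2 held 69 cells (0 control, 69 ischemia). Cluster 3 held 62 cells (8 control, 54 ischemia), and cluster 4 held 36 cells (10 control, 26 ischemia). Genes leading cluster 2 included Ccl24, Areg, Dmkn, Vegfa, Hilpda, Ptgs2, Nt5e, Ccl2 and Osm. With 3 markers of infiltrating macrophages among its first 10 genes, it is called infiltrating macrophage-like. With 0 of 23 control cells, which allows a share of up to 14.8%, a cluster of 1 library may reflect that library and not a cell type. Cluster 4 was led by Cd300e, Eno3, Slc12a2, Spn, Pglyrp1, Ace, Cblb and Ear2, with 5 non-classical markers among its first 10 genes, and it is called non-classical monocyte-like. Cluster 1 had the highest sum of classical monocyte markers, 6893 CPM, but its first genes were endothelial (Emcn, Meis2, Plvap and Adgrl4), so it stays unnamed. The 10 cells of cluster 1 with the most endothelial UMIs held 98.7% of its endothelial marker UMIs. In cluster 3, the highest ratios were those of Ccl8, Mmp12, Cd72, Slamf9, Ccl12, Arhgap22 and Pf4. For some of these, 1 cell held much of the total, with 100% of the Ccl8 UMIs, 74.6% of the Mmp12 UMIs and 51.2% of the Ccl12 UMIs. Cluster 3 also stays unnamed because markers of several cell types tied, with 1 each of resident macrophages, platelets and distal tubule among its first 10 genes. Its resident macrophage markers, C1q genes among them, summed to 2144.5 CPM, against 822 CPM in the other C1q-low cells. C1qb, which the gate limited, was at 675 CPM in cluster 3, against 316, 396 and 4.42 CPM in clusters 1, 2 and 4.

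Within clusters, the values of both libraries could be set side by side, with few control cells in each. In the non-classical monocyte-like cluster 4, Ace was at 605 CPM (416–849, 9 of 10 cells) in control and 617 CPM (506–747, 24 of 26 cells) in ischemia. Adgre4 was at 733 CPM (524–998, 10 of 10 cells) and 775 CPM (649–918, 25 of 26 cells) there, and Nr4a1 at 898 CPM (664–1187, 10 of 10 cells) and 1107 CPM (955–1276, 26 of 26 cells). The intervals of both libraries overlapped for each of these genes. The clusters were formed on the same counts and Ace was among the first genes of cluster 4, so this overlap is partly built in and is no test. Over all C1q-low cells the ratio of Ace was 0.408 (0.285–0.5997), with 10 of 23 control and 26 of 242 ischemia cells in cluster 4. H2-Aa differed between the libraries within cluster 3, where it was at 6712 CPM (6119–7347, 8 of 8 cells) in control and 1451 CPM (1354–1554, 34 of 54 cells) in ischemia. In cluster 1, H2-Aa was at 999 CPM (748–1306, 2 of 5 cells) and 959 CPM (897–1024, 44 of 93 cells), with overlapping intervals, and in cluster 4 it was at 91.6 CPM (29.7–214, 1 of 10 cells) and 186 CPM (128–263, 6 of 26 cells). H2-Eb1 was at 7839.9 CPM (7198–8524, 8 of 8 cells) and 1221 CPM (1132–1315, 35 of 54 cells) in cluster 3, and in clusters 1 and 4 its ischemia level was not below control.

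**Figure D4:**
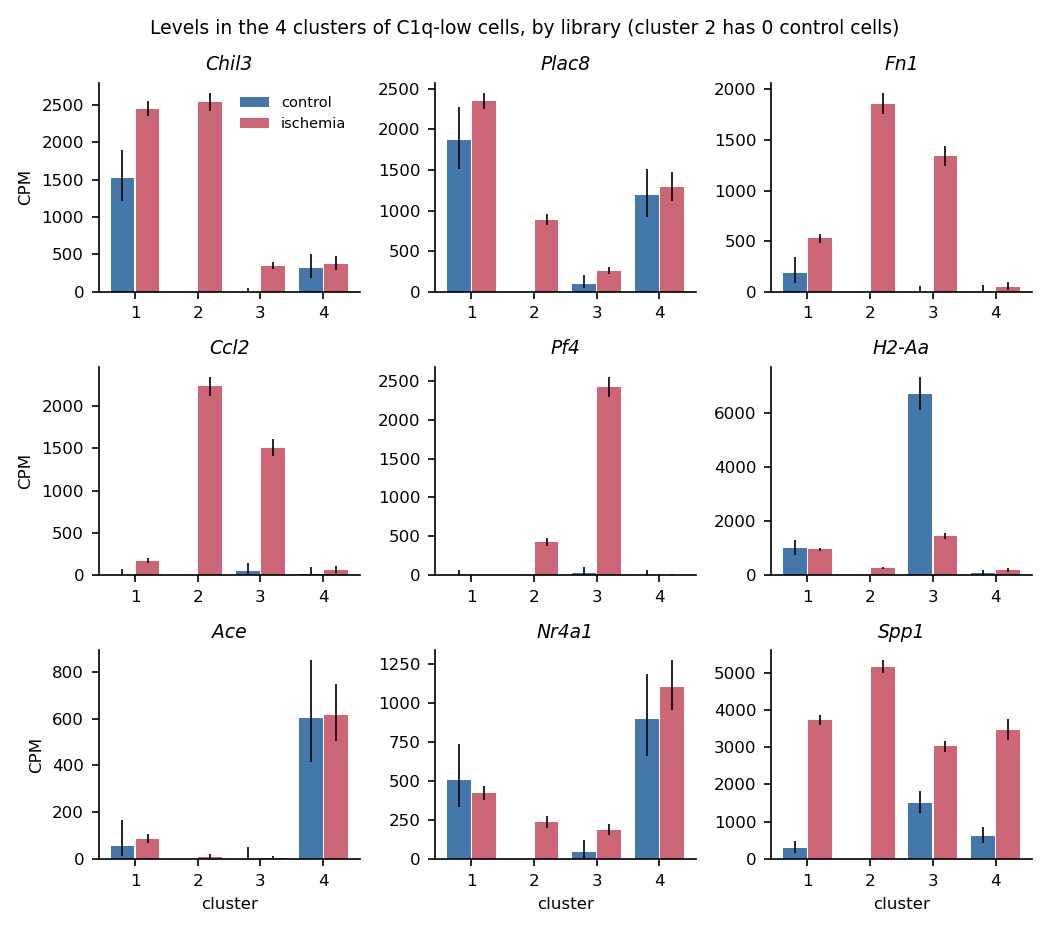
Level in CPM (vertical axis, bars from 0) of 9 genes in the 4 clusters of C1q-low cells (horizontal axis) by library, with 95% Poisson intervals. Ace is high in cluster 4 of both libraries, Ccl2 in clusters 2 and 3 of the ischemia library, and Spp1 is higher in ischemia in clusters 1, 3 and 4.

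Genes higher in ischemia were spread unevenly. Ccl2 reached 2227 CPM (2116–2342, 57 of 69 cells) in cluster 2 and 1506 CPM (1407–1609.5, 35 of 54 cells) in cluster 3 of the ischemia library, against 175 CPM (149–204, 16 of 93 cells) in cluster 1 and 64.1 CPM (31.99–115, 3 of 26 cells) in cluster 4. In control, Ccl2 was at 57.1 CPM (15.6–146, 1 of 8 cells) in cluster 3. Pf4 was concentrated in cluster 3, at 2421 CPM (2295–2552, 26 of 54 cells) in ischemia and 28.6 CPM (3.46–103, 2 of 8 cells) in control. The classical monocyte genes Plac8 and Hp were instead highest in cluster 1 of the ischemia library, at 2348 CPM (2251–2449, 88 of 93 cells) and 517 CPM (472–566, 71 of 93 cells), and Ly6c2 was at 124 CPM (103–149, 36 of 93 cells) there. Other genes differed between the libraries within clusters. Spp1 was at 301 CPM (172–489.6, 5 of 5 cells) in control and 3729.9 CPM (3606–3856, 93 of 93 cells) in ischemia for cluster 1, at 1499 CPM (1226–1815, 8 of 8 cells) and 3023 CPM (2883–3169, 54 of 54 cells) for cluster 3, and at 623 CPM (431–870.4, 10 of 10 cells) and 3472 CPM (3198–3762, 26 of 26 cells) for cluster 4. Fth1 was at 4484 CPM (3933–5092, 5 of 5 cells) and 6408 CPM (6246–6573, 93 of 93 cells) for cluster 1, at 4741 CPM (4245–5279.5, 8 of 8 cells) and 13412 CPM (13114–13715, 54 of 54 cells) for cluster 3 and at 3517 CPM (3037–4052, 10 of 10 cells) and 5103 CPM (4770.3–5452, 26 of 26 cells) for cluster 4. Msr1 was at 37.7 CPM (4.56–136, 2 of 5 cells) and 272 CPM (239.6–308, 72 of 93 cells) for cluster 1 and at 14.3 CPM (0.362–79.6, 1 of 8 cells) and 539.7 CPM (481–603, 47 of 54 cells) for cluster 3. Some genes lay closer within cluster 1 than over all C1q-low cells. Chil3 was at 1526 CPM (1212–1897, 3 of 5 cells) in control and 2444.5 CPM (2345–2547, 78 of 93 cells) in ischemia there. F13a1 was at 188 CPM (90.4–346.5, 4 of 5 cells) and 353 CPM (316–394, 58 of 93 cells), with overlapping intervals. Control Thbs1 in cluster 1 was at 622 CPM (428–873, 4 of 5 cells). The cluster in both libraries together was at 1022 CPM (959–1087), where the control cells gave 33 of the 1000 UMIs. Klf2 was lower in ischemia within cluster 1, at 611 CPM (562–664, 72 of 93 cells) against 1752 CPM (1414–2147, 4 of 5 cells). The endothelial gene Emcn was there at 810.2 CPM (586–1091, 1 of 5 cells) in control and 112 CPM (91.8–136, 6 of 93 cells) in ischemia, so 1 of these 5 control cells carried endothelial transcripts, and its part in the Klf2 level was not tested.

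Markers of other cell types were counted in the C1q-low cells to show what else they carried. Neutrophil markers summed to 90.0 CPM in control and 520 CPM in ischemia over 7 genes, of which 4 and 5 were detected, led by S100a8 at 45.0 and 392 CPM, with Ly6g and Retnlg at 0 UMIs in both. T and NK cell markers had 0 UMIs in control and 2 in ischemia. The 9 proximal tubule markers summed to 4435 and 3316.5 CPM, led by Gpx3, and the 5 injured tubule markers to 28.1 and 304 CPM, led by Lcn2 at 214 CPM in ischemia. In the remaining cells of the libraries, Lcn2 measured 127 CPM for control against 1387 CPM for ischemia. Endothelial markers summed to 692 CPM in control, where 1 cell held at least 10 UMIs of them, and to 227 CPM in ischemia, where 5 cells did. Distal tubule and collecting duct markers summed to 692 and 47.7 CPM, led in control by Slc12a3, for which 1 cell held 67.01% of the UMIs. Injured tubule markers were thus higher in ischemia both in C1q-low cells and in the rest of the libraries, and their part in the results above was not tested. Dendritic cell markers summed to 78.8 and 16.2 CPM, with 6 of 8 genes detected in each library, Xcr1 and Ccr7 at 0, and Flt3, Cd209a, Xcr1 and Clec9a limited by the gate. B cell markers summed to 67.5 and 28.1 CPM, led by Ighm, with Cd79a at 0 in both. Thick ascending limb markers summed to 197 and 63.9 CPM, erythroid markers to 11.3 and 2.56 CPM, and mesenchymal markers to 0 and 5.11 CPM. Platelet markers summed to 11.3 and 741 CPM, nearly all of it Pf4. Leaving out C1q-low and C1q-high cells with over 1% tubule and endothelial UMIs kept 21 control and 231 ischemia C1q-low cells, and 373 genes were then at least 2-fold higher in ischemia and 146 lower, of which 329 and 127 were among the 394 and 159 given above. With a C1q limit of 1%, 338 were higher and 197 lower, of which 224 and 92 were among them. With the 5 myeloid genes of the gate at 0.1% of UMIs or more, 472 were higher and 122 lower, 268 and 67 of them shared, and without the cells scored most like doublets 460 and 131, with 322 and 94 shared.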

How the data were processed

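Both libraries were made with 10x Genomics droplets, and each condition is 1 library. The authors deposited raw UMI counts per gene and called cell barcode, which the file headers and the submitters' processing notes credit to Cell Ranger 7.0.0 with mm10. The counts were used as deposited, with no ambient RNA correction and no doublet removal, and 0 columns of the files were left unused. Ambient RNA, captured in every droplet, adds counts of abundant genes to cells that do not make them.

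Kept barcodes had 200 or more genes, between 500 and 150000 UMIs and no more than 55% of UMIs from mitochondrial genes, and C1q-low cells were gated as the report states. The cells, gene lists and alternatives were chosen with earlier results of these data known, and no list is independent support. UMIs were summed over the cells of a group and library and given as CPM with exact Poisson 95% intervals, ratios with exact conditional intervals and shares with Clopper-Pearson intervals. A count of 0 was set at 3 counts for a ratio, which then reads "at least". Genes with at least 100 UMIs over both groups were counted as higher or lower at a ratio of 2 or of 0.5. With 1 library per condition no test was run.

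For each comparison, 12 genes on each side were named by the interval bound nearest to 1, leaving out genes of the gate, mitochondrial, ribosomal and hemoglobin genes, and genes under 2 times their CPM in the rest of the library. Members of the lists were named besides, and a few genes are not reported here. Names came from the files, and 32158 of 32285 identifiers matched GENCODE M21 (GRCm38), the source of gene positions. For clusters, counts scaled to 10000 were log-transformed, and 1000 variable genes, 20 principal components and 15 neighbours entered Leiden clustering at resolution 0.5. Cells were thinned to 1000 UMIs with seed 42 for shares of cells with a UMI. The scripts were tested on simulated data. Tools were Python 3.11.15, numpy 2.4.6, scipy 1.17.1, pandas 2.3.3, scanpy 1.11.5, python-igraph 0.11.9 and matplotlib 3.10.9.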

Additional observations from a re-analysis of the deposited data

How the results depend on the processing

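With 23 control cells, ratios to control moved with single cells. No paired analysis was possible because each condition is 1 library and no result comes from a test. The share of C1q-low cells in ischemia was 2.13% with at most 25% mitochondrial UMIs, 3.07% with at least 1000 UMIs a cell, 1.57% with C1q below 0.2% and 2.16% with C1q below 1%. The last limit gave 42 control cells, a share of 0.334%. With at least 30 UMIs over both groups, 941 genes were at least 2-fold higher and 714 lower in ischemia than in control C1q-low cells, of 7262 measured, and 811 higher and 626 lower in C1q-low than in C1q-high cells, of 8535. Higher genes were then 56.9% of those past 2-fold in ischemia against control, and 71.2% as reported. With the interval of the ratio past 1.5, 121 genes were higher and 94 lower in ischemia (56.3% higher). Without thinning, the shares of ischemia cells with a UMI were 88.8% for Il1b and 69.8% for Chil3. Resolution 1 gave 8 clusters. Directions turned for Cd81 at 1.27 and Tnf at 1.01 with C1q below 0.2%, Ms4a7 at 0.740 with C1q below 1%, and Emcn at 1.21 and Plpp1 at 3.39 once the 10% of cells scored most like doublets were left out. The cause was not tested. For 176 of the named and listed genes, 1407 ratios were recomputed under 8 alternatives: 1165 moved within their counting interval, 237 moved past it in the same direction, and these 5 turned. The minimum of 1000 UMIs a cell left out none of the compared cells, so its 176 ratios could not move, while with C1q below 1% 88 stayed within their interval and 87 moved past it. Depth limits low genes, as 16.9 CPM in control could have gone without a UMI.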
